A study of Mus musculus with 12 samples.

Results

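The 8 genes described here, Trem2, Tyrobp, Gpnmb, Spp1, Cd9, Lgals3, Fabp5 and Plin2, are used together as marks of lipid-associated macrophages. They were taken by symbol from the 24422 genes counted in each library, and all 8 passed the filter on low counts that left 16713 genes for testing. Poly-A RNA was sequenced from mouse fat, from cells labelled as stromal that make up its stromal vascular fraction, which is fat without its mature adipocytes. There are 4 groups of 3 libraries, and every group carries a knock-in at 1 allele of p21 (Cdkn1a), a cell cycle inhibitor gene. SD mCherry (replicates 1, 2 and 3) is p21+/mcherry on Standard Diet, and HFD mCherry (replicates 15, 17 and 20) is the same genotype on High Fat Diet. HFD Tert (replicates 25, 26 and 27) is p21+/mcherry-Tert, in which the p21 promoter also drives telomerase reverse transcriptase. HFD TertCi (replicates 30, 31 and 33) is p21+/mcherry-TertCi, which carries the catalytically inactive enzyme. The cassette is made only where the p21 promoter is active. The design text writes the high-fat control as p21+/-, whereas the sample labels name the mCherry allele, and the labels were followed. Sex, age, fat depot and batch are not given in the labels, nor whether libraries came from separate animals, so p-values measure the spread between these libraries.

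Trem2 is a lipid-sensing receptor of macrophages that signals through the adaptor Tyrobp (DAP12) and the kinase Syk. In obese fat, macrophages gather around dying adipocytes in crown-like structures and run a programme of lipid uptake, lysosomal digestion and storage that depends on Trem2 in mice. The 8 genes span that programme. Trem2 and Tyrobp are the receptor and its adaptor, Gpnmb is a lysosome-linked membrane glycoprotein, Spp1 (osteopontin) and Lgals3 (galectin-3) are secreted, Cd9 is a tetraspanin, Fabp5 is a fatty acid carrier and Plin2 coats lipid droplets.

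Promoter sequences were matched for 6 of the 8 genes, as 7 windows of 250 bases ending just before the RefSeq transcription start (build GRCm38.p6). The windows of 4 genes are shown because levels of Trem2 and Gpnmb followed each other across the libraries (Pearson's r of log2 levels = 0.978), whereas Spp1 (r with Trem2 = 0.555) and Cd9 (0.442) followed Trem2 less closely. Capitals mark matches to the motifs searched.
Trem2, chr17:48346151-48346400, plus strand: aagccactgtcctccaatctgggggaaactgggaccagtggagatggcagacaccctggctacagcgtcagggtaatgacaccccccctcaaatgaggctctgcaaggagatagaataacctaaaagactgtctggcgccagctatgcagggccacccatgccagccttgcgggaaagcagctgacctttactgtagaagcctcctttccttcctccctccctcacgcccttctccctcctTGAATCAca
Gpnmb, chr6:49036268-49036517, plus strand: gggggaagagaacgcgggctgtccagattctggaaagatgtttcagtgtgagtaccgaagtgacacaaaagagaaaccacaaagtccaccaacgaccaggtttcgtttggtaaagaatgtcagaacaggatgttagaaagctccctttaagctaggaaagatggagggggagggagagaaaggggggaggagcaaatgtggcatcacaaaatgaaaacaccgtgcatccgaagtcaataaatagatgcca
Spp1, chr5:104434861-104435110, plus strand: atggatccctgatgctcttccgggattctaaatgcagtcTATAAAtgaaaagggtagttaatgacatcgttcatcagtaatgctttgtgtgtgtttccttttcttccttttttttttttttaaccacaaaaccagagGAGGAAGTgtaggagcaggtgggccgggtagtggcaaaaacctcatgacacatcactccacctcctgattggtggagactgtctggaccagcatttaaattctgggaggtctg
Cd9, chr6:125494761-125495010, minus strand: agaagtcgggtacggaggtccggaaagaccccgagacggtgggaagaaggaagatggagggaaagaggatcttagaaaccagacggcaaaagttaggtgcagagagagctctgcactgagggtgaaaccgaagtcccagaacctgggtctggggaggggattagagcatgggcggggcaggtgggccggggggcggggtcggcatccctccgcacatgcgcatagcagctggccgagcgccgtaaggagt

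Of 7 motifs searched on both strands, 4 had a match in a member window. The AP-1 search letters were TGANTCA, with any base at N, which is looser than the C or G of the usual AP-1 site. The Trem2 window holds TGAATCA 9 to 3 bases before the start. A match to TGANTCA stands in 6.75% of all 32851 promoter windows of that length. The first of 2 Spp1 windows holds the PU.1 letters GAGGAAGT 113 to 106 bases before the start (2.44% of windows). The shorter ETS core AGGAAGT lies inside that match (7.69% of windows). The letters TATAAA stand 211 to 206 bases before the start of Spp1 (12.4% of windows). TCACGTG (3.13% of windows) and TCATGTG (3.25%), the letters bound by Mitf and its relatives, and the C/EBP letters TTGCGCAA (0.164%) had no match in the 7 windows. These are matches of letters, and binding was not measured.

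The genes lie on 7 chromosomes of build GRCm38 (GENCODE M21 gene models). Trem2 is at chr17:48346401-48354147, Tyrobp at chr7:30413760-30417585, Gpnmb at chr6:49036546-49070929 and Spp1 at chr5:104435118-104441050. Cd9 is at chr6:125460266-125494791, Lgals3 at chr14:47367751-47386160, Fabp5 at chr3:10012548-10016607 and Plin2 at chr4:86648386-86670060. Cd9 and Plin2 are on the minus strand and the other 6 genes on the plus strand. Exons of Spp1 overlap the gene model Gm42793, those of Cd9 overlap Gm26728 on the opposite strand, and Fabp5 has 2 near-identical copies, Gm14328 and Gm6166. These models are outside the count table used here, and how shared reads were counted is not given in the sources used here, so Spp1, Cd9 and Fabp5 carry that uncertainty.

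The libraries held 16430330 to 19486965 counts over genes. Levels are given as CPM, a read count scaled to library size, after TMM scaling, a correction for composition whose factors ran from 0.854 to 1.15. The stromal label was checked against markers: 9 adipose progenitor genes summed to 3655 to 5099 CPM in SD mCherry and 12 core macrophage genes to 1159 to 1304 CPM. Crisp1, a secreted protein of epididymis epithelium, was at 641 CPM or more in 8 libraries and at 0.529 CPM or less in SD mCherry replicate 2, HFD mCherry replicate 20, HFD Tert replicate 27 and HFD TertCi replicate 31. These 4 libraries, 1 from each group, stand apart by Crisp1, and results are also given for them and for the other 8 separately. The split is less clean for the sum of 10 genes listed for epididymis epithelium. Among them Epcam, Krt8 and Krt18 are made by other epithelia too, and reached 543, 1818 and 1247 CPM in their highest libraries. The sum is therefore not a level of epididymis RNA alone. SD mCherry replicate 2 held 3615 CPM of the 10 genes, more than the 2040.1 CPM of HFD mCherry replicate 17, a library with Crisp1. The other 3 libraries without Crisp1 held 55.8 to 328 CPM, and the other 7 with it 10939 to 56574 CPM.

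The first comparison asked what the high-fat diet did in the control genotype. Trem2, Tyrobp, Gpnmb, Lgals3, Fabp5 and Plin2 stood 3.68-fold to 19.5-fold higher in HFD mCherry than in SD mCherry by the fitted ratio. For these 6 genes every HFD mCherry library was above every SD mCherry library, as for 13.9% of all genes tested. Cd9 differed by 1.23-fold, and Spp1 stood lower. In edgeR's quasi-likelihood test with Benjamini-Hochberg adjustment, 0 of the 8 passed an adjusted p of 0.05 (0.0479% of all genes did), and 6 stood higher at an unadjusted p under 0.05 (14.1% of all genes). DESeq2, a second count model, called 5 of the 8 higher (8.07% of all genes): Trem2, Tyrobp, Lgals3, Fabp5 and Plin2. It gave no adjusted p for Gpnmb. The median log2 difference of the 8 was 2.63, beside -0.08 over all genes. Without HFD mCherry replicate 15, the lowest of its group for all 8, edgeR called 5 of the 8 (12.2% of all genes): Trem2, Tyrobp, Lgals3, Fabp5 and Plin2.

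Trem2, the receptor, stood at 10.3, 13.6 and 22.5 CPM in SD mCherry replicates 1, 2 and 3, and at 63.1, 253 and 226 CPM in HFD mCherry replicates 15, 17 and 20. The groups did not overlap, and HFD mCherry replicate 15 was the lowest of its group. The log2 fold change was 3.55 ± 0.996 (SE), with an adjusted p of 0.0894 by edgeR and 0.00170 by DESeq2. In HFD Tert replicates 25, 26 and 27 Trem2 stood at 13.9, 6.35 and 70.5 CPM, and in HFD TertCi replicates 30, 31 and 33 at 10.5, 53.5 and 11.8 CPM. In each knock-in group 2 libraries were within the SD mCherry range or under it, and the library without Crisp1 was above it.

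Tyrobp, the membrane adaptor of Trem2, was at 14.6, 16.002 and 17.7 CPM in SD mCherry and at 46.8, 135 and 110.4 CPM in HFD mCherry. It was the steadiest of the 8 on the standard diet, where its highest library was 1.21 times its lowest. Its log2 fold change was 2.60 ± 0.628 (edgeR adjusted p = 0.0729, DESeq2 adjusted p = 0.00132). HFD Tert held 11.2, 11.1 and 54.2 CPM and HFD TertCi 20.2, 35.8 and 21.7 CPM. All 3 HFD TertCi libraries lay between the SD mCherry and the HFD mCherry libraries.

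Gpnmb, the glycoprotein, was at 19.04, 25.8 and 131 CPM in SD mCherry and at 288, 1577 and 1565 CPM in HFD mCherry. The groups did not overlap, although SD mCherry replicate 3 was 6.86 times the lowest library of its group. Its log2 fold change was 4.29 ± 1.38 (edgeR adjusted p = 0.116), the largest of the 8, and 5.67 without SD mCherry replicate 3. HFD Tert held 22.3, 25.8 and 308 CPM and HFD TertCi 31.9, 226 and 35.6 CPM. HFD Tert replicate 27 was above HFD mCherry replicate 15, while every HFD TertCi library was under every HFD mCherry library.

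**Figure D1:**
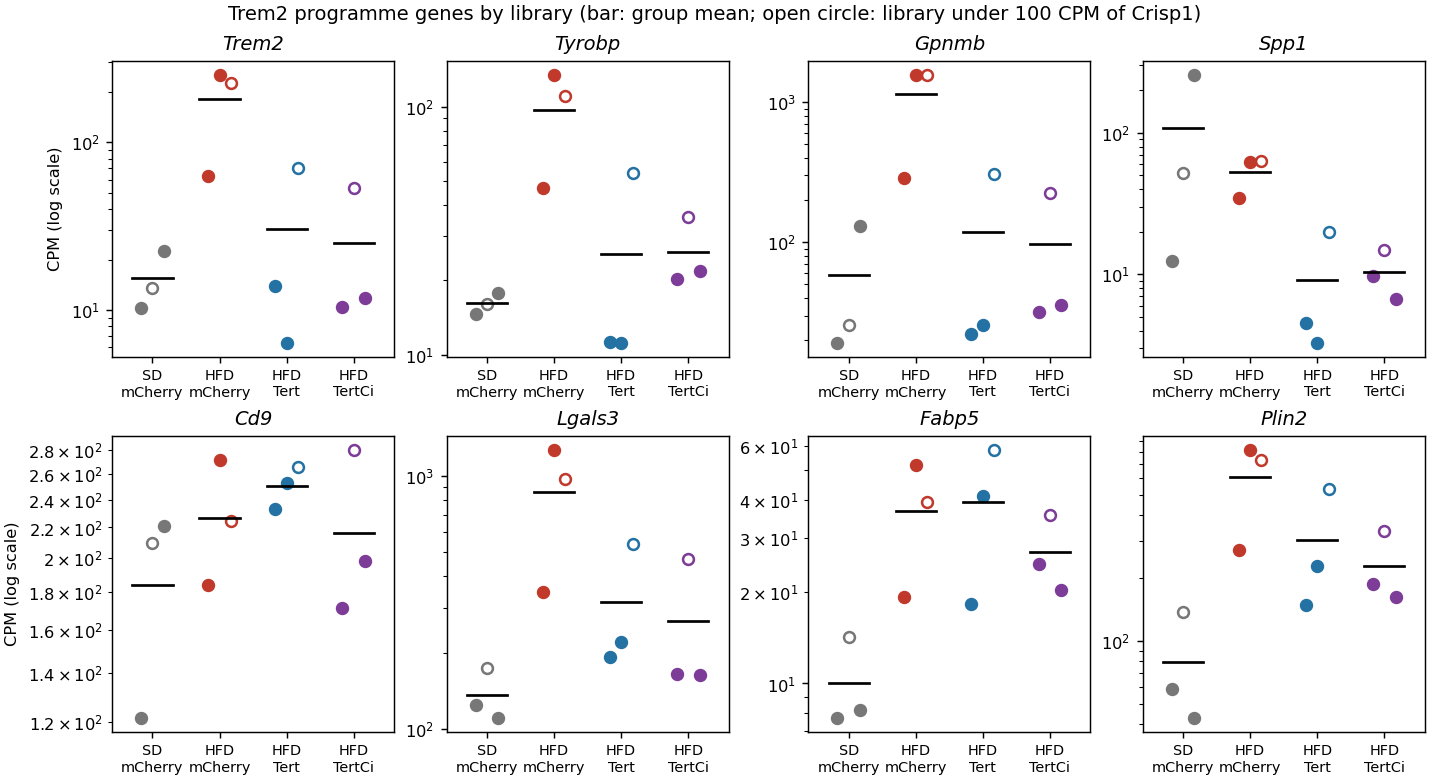
CPM (log scale, vertical axis) of the 8 genes in each of the 12 libraries, by group; points are libraries, bars are group means of 3 libraries, and open circles mark the 4 libraries under 100 CPM of Crisp1. Trem2, Tyrobp, Gpnmb, Lgals3, Fabp5 and Plin2 are higher in every HFD mCherry library than in every SD mCherry library, and Spp1 is spread widest in SD mCherry.

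Of the secreted proteins, Spp1, a ligand of integrins and Cd44, was at 12.4, 52.0 and 258 CPM in SD mCherry and at 34.4, 62.2 and 63.1 CPM in HFD mCherry. The SD mCherry libraries lay on both sides of the HFD mCherry range, and their 20.8-fold spread was the largest of the 8 genes in the 4 groups. The log2 fold change was -1.01 ± 0.940 (edgeR adjusted p = 0.509), and 0.72 without SD mCherry replicate 3. Spp1 was lowest in the knock-ins, at 4.49, 3.26 and 19.7 CPM in HFD Tert and 9.69, 14.9 and 6.67 CPM in HFD TertCi. All 6 knock-in libraries were under all 3 HFD mCherry libraries.

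Lgals3, which binds galactosides inside and outside the cell, was at 124, 173 and 109.9 CPM in SD mCherry and at 348, 1271 and 969 CPM in HFD mCherry. The groups did not overlap, and the log2 fold change was 2.67 ± 0.612 (edgeR adjusted p = 0.0708, DESeq2 adjusted p = 0.000521). HFD Tert stood at 192, 219.7 and 537 CPM and HFD TertCi at 165, 468 and 164 CPM. Every HFD Tert library was above every SD mCherry library, and each knock-in group had 1 library above HFD mCherry replicate 15.

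Cd9, a tetraspanin that many cell types carry, was at 121, 209.6 and 221 CPM in SD mCherry and 184, 272 and 224 CPM in HFD mCherry. It was at 233, 252 and 266 CPM in HFD Tert and 171, 280.5 and 198 CPM in HFD TertCi. All pairs of groups overlapped except HFD Tert and SD mCherry. The log2 fold change for the diet was 0.30 ± 0.273, with a 95% interval from -0.30 to 0.90 (edgeR adjusted p = 0.499).

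Fabp5, the intracellular carrier of fatty acids, was at 7.69, 14.2 and 8.17 CPM in SD mCherry and at 19.2, 52.0 and 39.4 CPM in HFD mCherry. Its log2 fold change was 1.88 ± 0.485 (edgeR adjusted p = 0.0761, DESeq2 adjusted p = 0.00576). The knock-ins were in a like range, with 18.1, 41.1 and 58.4 CPM in HFD Tert and 24.6, 35.7 and 20.3 CPM in HFD TertCi. All 9 high-fat libraries were above all 3 SD mCherry libraries. Plin2, on the surface of lipid droplets, was at 58.9, 138 and 42.8 CPM in SD mCherry and at 272, 819.7 and 733 CPM in HFD mCherry. Its log2 fold change was 2.93 ± 0.641 and had the smallest adjusted p of the 8 (0.0671 by edgeR, 0.000188 by DESeq2), and it was 3.58 without SD mCherry replicate 2. It stood at 148, 228 and 530.4 CPM in HFD Tert and 187, 336 and 162 CPM in HFD TertCi. For Plin2, too, all 9 high-fat libraries were above the 3 SD mCherry libraries.

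Levels were also divided by the length of merged exons over all transcript models of a gene. That length can exceed that of the transcript made, so ranks on this scale depend on it. Fabp5 counted 3.567 kb in 2 merged exons and Trem2 4.946 kb in 5. Per kilobase, Lgals3 led in HFD mCherry at 464 ± 253 CPM per kb (SD, n = 3). Gpnmb (175 ± 114), Plin2 (173 ± 83.7), Tyrobp (146 ± 68.2) and Cd9 (111 ± 21.5) followed, and neighbours among these 5 overlapped. Trem2 (36.5 ± 20.8) and Spp1 (32.3 ± 9.92) lay under Cd9 without overlap and overlapped each other, and Fabp5 (10.3 ± 4.64) was last, overlapping Trem2 but under Spp1 without overlap. In SD mCherry the order of levels per kb began with Cd9 (90.1 ± 26.7), Lgals3 (73.1 ± 17.9) and Spp1 (65.3 ± 80.1), neighbours that overlapped. It ended with Trem2 (3.13 ± 1.28) and Fabp5 (2.80 ± 1.01), which overlapped too. In both knock-in groups Lgals3 and Cd9 led, and Trem2 and Spp1 were among the lowest 3.

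The next comparisons asked how the cassettes changed these levels on the high-fat diet. They share the 3 HFD mCherry libraries with each other and with the diet comparison, so their values are not independent. In the 6 knock-in libraries together, Trem2, Tyrobp, Gpnmb, Spp1, Lgals3 and Plin2 stood 2.31-fold to 10.6-fold lower than in HFD mCherry by the fitted ratio. By edgeR 0 of the 8 passed an adjusted p of 0.05 (0.168% of all genes did), and 6 stood lower at an unadjusted p under 0.05 (13.4% of all genes). DESeq2 called 4 lower (5.38% of all genes): Trem2, Tyrobp, Spp1 and Lgals3. Spp1 alone of the 8 had groups that did not overlap (7.03% of all genes). The median log2 difference of the 8 was -1.75, beside -0.05 over all genes. Without HFD mCherry replicate 15 edgeR called 2 of the 8 (4.04% of all genes), Tyrobp and Lgals3, and without HFD Tert replicate 27 it called 3 (3.06% of all genes), Trem2, Tyrobp and Gpnmb. Without the latter library the log2 difference of Trem2 was -3.50 and that of Gpnmb -4.56, and without HFD TertCi replicate 31 they were -3.30 and -4.17.

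For Trem2 the log2 difference of the knock-ins from HFD mCherry was -2.71 ± 0.753 (edgeR adjusted p = 0.101, DESeq2 adjusted p = 0.00934). For its adaptor Tyrobp it was -1.92 ± 0.493 (edgeR adjusted p = 0.0865, DESeq2 adjusted p = 0.0104). Gpnmb was at -3.41 ± 1.02, the largest of the 8, with an edgeR adjusted p of 0.113. The secreted proteins both stood lower. Spp1 was at -2.45 ± 0.780 (edgeR adjusted p = 0.130, DESeq2 adjusted p = 0.0259), and Lgals3 at -1.57 ± 0.480 (edgeR adjusted p = 0.115, DESeq2 adjusted p = 0.0337). Of the lipid-handling genes, Plin2 was at -1.21 ± 0.499 (edgeR adjusted p = 0.204) and Fabp5 at -0.18 ± 0.402, with a 95% interval from -1.07 to 0.71. Cd9 was at 0.04 ± 0.236, with an interval from -0.48 to 0.56.

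Taken singly, HFD Tert differed from HFD mCherry by -2.58 on the log2 scale for Trem2, -1.93 for Tyrobp, -3.27 for Gpnmb, -2.54 for Spp1 and -1.45 for Lgals3. HFD TertCi differed by -2.84 for Trem2, -1.91 for Tyrobp, -3.54 for Gpnmb, -2.35 for Spp1 and -1.70 for Lgals3. Both groups had 1 library nearer to HFD mCherry than the others. Without HFD Tert replicate 27 the Tert differences were -4.16 for Trem2, -3.12 for Tyrobp, -5.57 for Gpnmb, -3.78 for Spp1, -2.07 for Lgals3 and -1.69 for Plin2, which was -1.01 with it. Without HFD TertCi replicate 31 the TertCi differences were -4.02 for Trem2, -5.08 for Gpnmb and -2.39 for Lgals3. Trem2, Tyrobp, Gpnmb and Spp1 lay under HFD mCherry without overlap in HFD TertCi (4 of 8, beside 12% of all genes), and Spp1 did in HFD Tert (1 of 8, beside 11.1%). By edgeR 0 of the 8 passed for Tert (0% of all genes) and 0 for TertCi (0.0120%). At an unadjusted p under 0.05, 5 stood lower for Tert (9.75% of all genes) and 6 for TertCi (8.92%). DESeq2 called Tyrobp lower for Tert (adjusted p = 0.0431, beside 2.98% of all genes) and Trem2 for TertCi (adjusted p = 0.0351, beside 2.58%).

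The active and the inactive enzyme were set against each other in HFD Tert and HFD TertCi. EdgeR called 0 of the 8 (0% of all genes), 0 had an unadjusted p under 0.05 (1.36% of all genes), and DESeq2 called 0 (0.0487% of all genes). The libraries of the groups overlapped for all 8. The log2 difference was 0.26 for Trem2, with a 95% interval from -1.74 to 2.26, and -0.02 for Tyrobp (-1.33 to 1.29). Gpnmb had the widest interval, from -2.40 to 2.96, and Cd9 the narrowest, from -0.39 to 0.81. Intervals ran from -2.27 to 1.91 for Spp1, -1.02 to 1.52 for Lgals3, -0.49 to 1.58 for Fabp5 and -0.91 to 1.72 for Plin2. With 3 libraries a group, any difference inside these intervals remains possible. The sign of Trem2 and of Gpnmb turned in 3 of 6 fits that left out 1 library. Trem2 and Gpnmb were at -1.32 and -2.02 without HFD Tert replicate 27. They were at -0.11 and -0.14 without HFD TertCi replicate 30, and at -0.079 and -0.12 without HFD TertCi replicate 33. Without HFD TertCi replicate 31 they were at 1.44 and 1.81.

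**Figure D2:**
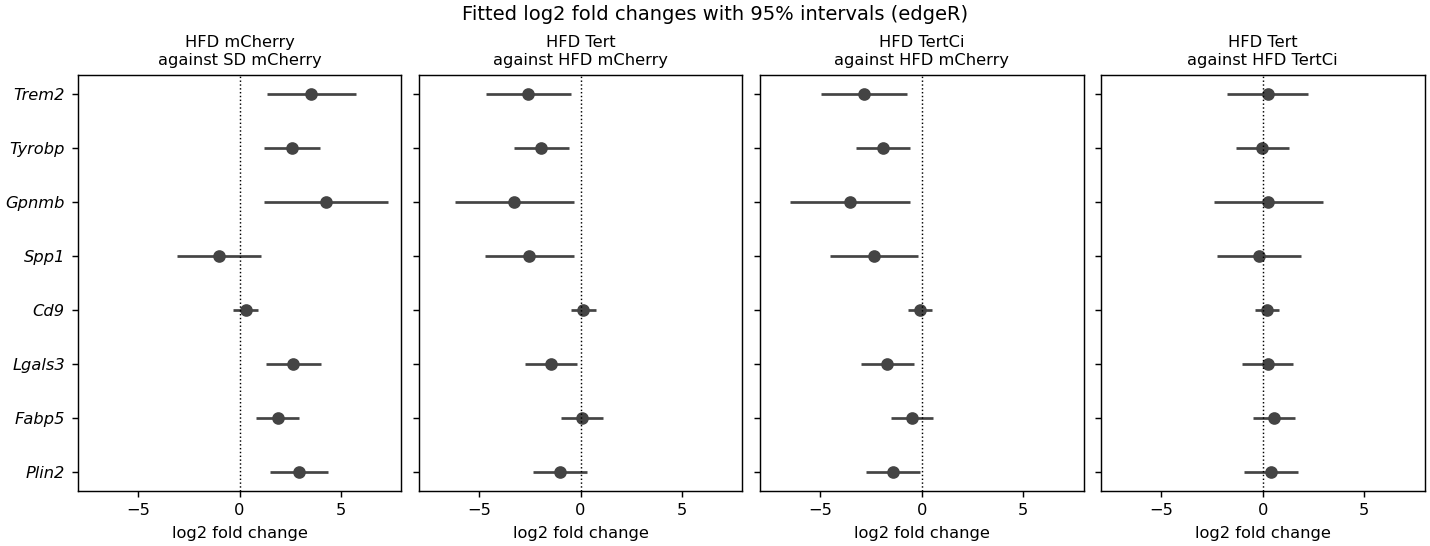
Fitted log2 fold change of each gene (horizontal axis, points) with its 95% interval (lines) in 4 comparisons, from edgeR with 3 libraries a group. Intervals for Trem2, Tyrobp, Gpnmb, Lgals3, Fabp5 and Plin2 lie above 0 for the diet, those for Trem2, Tyrobp, Gpnmb, Spp1 and Lgals3 lie under 0 for each knock-in, and all 8 include 0 for HFD Tert against HFD TertCi.

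Against SD mCherry, where diet and cassette differ together, Fabp5 and Plin2 stood higher in every library of both knock-in groups. In all, 4 genes stood higher without overlap for HFD Tert (Cd9, Lgals3, Fabp5 and Plin2, beside 11.3% of all genes) and 3 for HFD TertCi (Tyrobp, Fabp5 and Plin2, beside 10.3%). EdgeR called 0 of the 8 for HFD Tert (0% of all genes) and 0 for HFD TertCi (0%). For HFD Tert, DESeq2 called Fabp5 (edgeR log2 difference 1.97 ± 0.486, DESeq2 adjusted p = 0.00514) and Plin2 (edgeR 1.92 ± 0.617, DESeq2 adjusted p = 0.0327) higher, as 1.59% of all genes. Trem2 overlapped in both cases, with log2 differences of 0.97 ± 0.913 for HFD Tert and 0.71 ± 0.910 for HFD TertCi. Without the knock-in library lacking Crisp1 these were -0.61 and -0.47. Spp1 was at -3.55 ± 1.03 for HFD Tert (DESeq2 adjusted p = 0.00296, called lower beside 3.92% of all genes) and at -3.37 ± 1.02 for HFD TertCi (DESeq2 adjusted p = 0.00993, beside 2.52%). Without SD mCherry replicate 3 these Spp1 differences were -1.81 and -1.63, and without HFD Tert replicate 27 the first was -4.79. Plin2 was 2.57 for HFD Tert without SD mCherry replicate 2 and 1.24 without HFD Tert replicate 27. SD mCherry replicate 1 lay inside the Spp1 range of the knock-in libraries. A test for any difference among the 4 groups called 0 of the 8 by edgeR (0.0120% of all genes), with 7 at an unadjusted p under 0.05 (20.2% of all genes), and 6 by DESeq2 (12.5% of all genes).

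The 8 libraries with Crisp1 and the 4 without it were then read apart. Trem2, Tyrobp, Gpnmb, Spp1, Lgals3 and Plin2 stood lower in all 4 knock-in libraries than in both HFD mCherry libraries with Crisp1 (6 of 8, beside 15% of all genes). The same 6 stood lower in both knock-in libraries than in the single HFD mCherry library without it (45.2% of all genes). For Trem2 the knock-ins differed from HFD mCherry by -3.62 (difference of mean log2 CPM) with Crisp1 and by -1.88 without it. For Gpnmb these differences were -4.56 and -2.57, and for Plin2 -1.40 and -0.79. They were thus nearer 0 among the libraries without Crisp1. Both HFD mCherry libraries with Crisp1 were above both such SD mCherry libraries for 6 of the 8 genes, all but Spp1 and Cd9 (19.7% of all genes), and the HFD mCherry library without it was above the SD mCherry one for all 8 (45.8% of all genes). The diet difference of Trem2 was 3.05 with Crisp1 and 4.05 without it.

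Within each knock-in group the library without Crisp1 was the highest of the 3 for all 8 genes. With the Crisp1 split as a term in the edgeR model, a choice made after seeing the data, 5 of the 8 were called for the diet (9.02% of all genes), Trem2, Tyrobp, Lgals3, Fabp5 and Plin2, all higher. For both knock-ins together 5 were called (4.30% of all genes), Trem2, Tyrobp, Gpnmb, Lgals3 and Plin2, all lower. The edgeR adjusted p of Trem2 was then 0.0324 for the diet and 0.0275 for the knock-ins. The level of the 10 genes listed for epididymis epithelium, with Crisp1, Epcam, Krt8 and Krt18 among them, was also used as a covariate (the epididymis covariate). It is not independent of the Crisp1 term. With this covariate the same genes were called, 5 for the diet (6.66% of all genes) and 5 for the knock-ins (7.62%). That covariate also gave 4 for HFD Tert against HFD mCherry (3.93% of all genes), 1 for HFD TertCi against HFD mCherry (2.17%), 1 for HFD TertCi against SD mCherry (1.29%) and 5 in the 4-group test (5.43%). In the 4-group test the Crisp1 term gave 3 (1.68% of all genes), leaving out HFD mCherry replicate 15 gave 1 (3.81%) and leaving out HFD Tert replicate 27 gave 1 (0.991%).

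Core macrophage genes had the same directions as most of the 8. All 12, such as Adgre1, Csf1r and Cd68, stood higher in HFD mCherry than in SD mCherry, with a median log2 difference of 2.26, and all 12 stood lower in the knock-ins together, with a median of -1.81. Their summed level was 2601 to 6529 CPM in HFD mCherry, against 1159 to 1304 CPM in SD mCherry, and in the knock-ins it was 959 to 2602 CPM for Tert and 1248 to 1839 CPM for TertCi. DESeq2 called 11 of the 12 higher for the diet (8.07% of all genes) and 10 lower in the knock-ins (5.38% of all genes). The same shares hold beside the DESeq2 counts of the lists below, for genes higher for the diet and lower in the knock-ins. In these bulk samples, fewer macrophages and less RNA per macrophage cannot be told apart. Of 8 resident macrophage genes, 6 stood higher for the diet (median 1.44) and 5 lower in the knock-ins (median -0.93), and DESeq2 called 1 and 1. The gene called both times was Folr2, a folate receptor, at 2.83 ± 0.793 for the diet and -2.52 ± 0.618 in the knock-ins (DESeq2 adjusted p = 0.00350 and 0.00391). Mrc1, Cd163, Timd4 and F13a1 had the same signs, and Gas6 and Cbr2 the opposite ones. The summed resident level was 511 to 993 CPM in HFD mCherry, against 308 to 674 CPM in SD mCherry, and in the knock-ins it was 559 to 887 CPM for Tert and 434 to 1052 CPM for TertCi. Each of the 8 members was also set against the core macrophage genes of its own library, as its log2 level minus the mean log2 level of the 12 core genes.

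On that scale Tyrobp was at -1.10 ± 0.13 in HFD mCherry (SD, n = 3), beside -1.48 ± 0.38 in SD mCherry, and was at -1.40 ± 0.46 with Tert and -1.18 ± 0.18 with TertCi. HFD mCherry overlapped each of them. Trem2 was at -0.31 ± 0.44 in HFD mCherry, beside -1.61 ± 0.81 in SD mCherry, and was at -1.43 ± 0.84 with Tert and -1.60 ± 1.03 with TertCi. Gpnmb had the same order, at 2.23 ± 0.75 in HFD mCherry and -0.16 ± 1.74, 0.17 ± 1.26 and 0.16 ± 1.31 in the others. For both, HFD mCherry overlapped each other group. Lgals3 (1.99 ± 0.30 in HFD mCherry) and Plin2 (1.53 ± 0.20) were at 1.57 ± 0.22 and 0.65 ± 0.70 in SD mCherry, 2.50 ± 0.33 and 2.39 ± 0.53 in HFD Tert, and 2.03 ± 0.61 and 1.93 ± 0.35 in HFD TertCi. Spp1 was highest and most spread in SD mCherry, at 0.30 ± 2.41. Fabp5 was at -2.21 ± 0.42 in SD mCherry and -2.48 ± 0.10 in HFD mCherry, but at -0.50 ± 0.85 in HFD Tert and -1.12 ± 0.28 in HFD TertCi. All 6 knock-in libraries were above all 6 mCherry libraries, as for 2.67% of all genes. Cd9 was at 0.24 ± 0.43 in HFD mCherry and at 1.99 ± 0.65, 2.32 ± 0.87 and 1.89 ± 0.07 in the others, lower in every HFD mCherry library than elsewhere, as were 40.9% of all genes. With the macrophage level as a covariate in the edgeR model, 0 of the 8 were called in any comparison, as without it. The share of all genes called in that fit is not given here. Over the libraries Trem2 followed the macrophage level closely (Pearson's r = 0.947). With that covariate it turned to -0.53 for the diet and 0.28 for the knock-ins (edgeR adjusted p = 0.865 and 0.837).

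**Figure D3:**
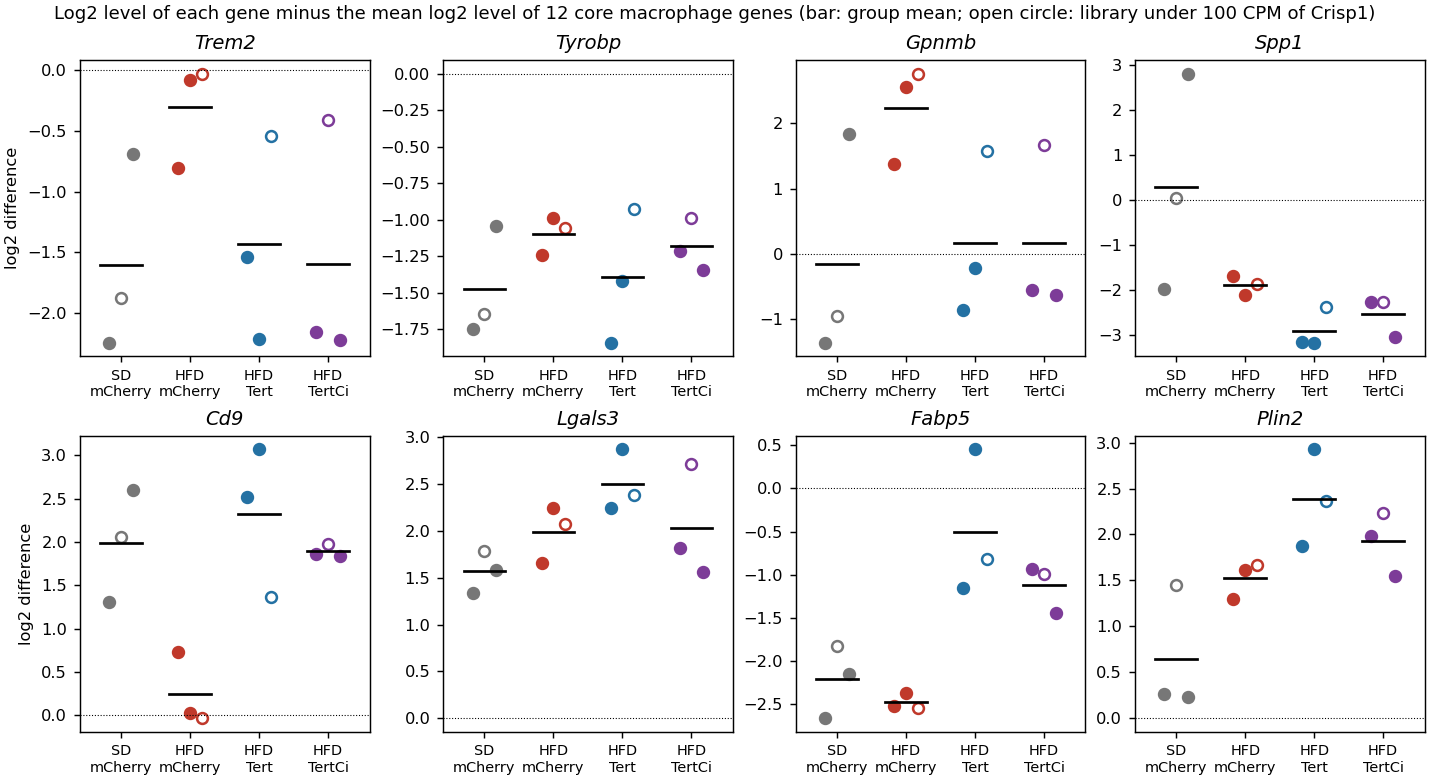
Log2 level of each gene minus the mean log2 level of 12 core macrophage genes in the same library (vertical axis), by group; points are libraries, bars are means of 3, open circles mark libraries under 100 CPM of Crisp1, and the dotted line is 0. Fabp5 is higher in all 6 knock-in libraries than in all 6 mCherry libraries, and Cd9 is lowest in the 3 HFD mCherry libraries.

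Adipocyte markers, 9 genes with Fabp4 among them, did not follow the diet as a list: 4 stood higher and 5 lower, with a median log2 difference of -0.20. They summed to 341 to 645 CPM in SD mCherry and 1005 to 1864 CPM in HFD mCherry, and to 879 to 6348 CPM for HFD Tert and 1842 to 3618 CPM for HFD TertCi. Fabp4, also counted among the other genes of lipid-associated macrophages, made up most of the sum, with means of 329 CPM in SD mCherry and 1182 CPM in HFD mCherry. In the knock-ins 7 of the 9 stood higher than in HFD mCherry, with a median log2 difference of 1.15. Cfd (adipsin) was called by edgeR, lower for the diet (-5.18 ± 0.537, edgeR adjusted p = 0.0219) and higher in the knock-ins (3.30 ± 0.474, edgeR adjusted p = 0.0443). The highest sum was in HFD Tert replicate 27, also the highest library for Fabp5. The part of adipocyte RNA in the levels of Fabp5 and Plin2 was not tested. All 5 mast cell markers stood higher for the diet (median 2.29) and lower in the knock-ins (median -2.56), as most of the 8 did. Their sum was 11.3 to 42.6 CPM in SD mCherry and 34.9 to 212 CPM in HFD mCherry, and 18.9 to 34.0 CPM for HFD Tert and 19.8 to 34.9 CPM for HFD TertCi. All 6 dendritic cell markers had these directions too (medians 1.45 and -0.67), whereas 5 T cell markers had medians of 0.09 and 0.04. A higher sum for the diet was not confined to these lists. Endothelial genes summed to 764 to 1108 CPM in SD mCherry and 1531 to 2812 CPM in HFD mCherry. Proliferation genes summed to 21.4 to 33.45 CPM and 51.7 to 103 CPM in these groups. The sum of mesothelial genes went the other way, with 438 to 1329 CPM and 281 to 323 CPM. Of those tested, all but Wt1 (log2 difference 1.53 ± 0.615) stood lower for the diet, with Krt19 lowest at -2.41 ± 0.967.

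Adipose progenitor genes also had the directions of most of the 8. Of 9, 8 stood higher for the diet (median 1.03, 4 called by DESeq2) and 7 lower in the knock-ins (median -0.64, 3 called by DESeq2). Their sum was 7752 to 22123 CPM in HFD mCherry, against 3655 to 5099 CPM in SD mCherry, and in the knock-ins it was 6019 to 12833 CPM for Tert and 5177 to 11198 CPM for TertCi. The collagen genes, like Folr2 named after their values were seen, stood furthest apart. Col3a1 was at 3.66 ± 0.733 for the diet and -2.09 ± 0.549 in the knock-ins, and Col1a1 at 2.86 ± 0.535 and -2.09 ± 0.416. Pdgfra, a growth factor receptor, was called lower in the knock-ins by edgeR (-1.70 ± 0.178, edgeR adjusted p = 0.0119). The part of mast, dendritic and progenitor cells in the levels of the 8 was not tested.

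Across the 12 libraries, described by Pearson's r of log2 CPM, Lgals3 (0.947), Gpnmb (0.931), Trem2 (0.922) and Tyrobp (0.912) followed the mean of the other 7 genes most closely. Plin2 (0.837) and Fabp5 (0.680) came next, and Cd9 (0.550) and Spp1 (0.281) last. The libraries share their group means and the Crisp1 split. With group means removed, r was 0.642 for Spp1 and 0.897 for Trem2. Fabp5 and Plin2 made a close pair (r = 0.923), whereas Spp1 and Fabp5 did not (-0.202). Of 15295 other genes whose mean reached 1 CPM, the 10 most like the mean of the 8 over the 12 libraries were Gdf3 (r = 0.976), Il10rb (r = 0.973), Abcg1 (r = 0.968), Smpdl3a (r = 0.968), Dck (r = 0.966), Wnt2 (r = 0.966), Lgmn (r = 0.965), Ctsb (r = 0.963), Lamp1 (r = 0.960) and Mcoln2 (r = 0.959).

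The rest of the programme was read from 20 other genes of lipid-associated macrophages. All 20 stood higher in HFD mCherry than in SD mCherry (45.9% of all genes did), with a median log2 difference of 2.67. EdgeR called 0 of them (0.0479% of all genes). At an unadjusted p under 0.05, 16 stood higher (14.1% of all genes), and DESeq2 called 15 (8.07% of all genes). Mmp12, a macrophage elastase, was at 4.75 ± 1.70 (edgeR adjusted p = 0.142) and Itgax, which encodes CD11c, at 4.71 ± 1.19 (edgeR adjusted p = 0.0760). The smallest differences were those of Cstb, a cathepsin inhibitor (0.47 ± 0.305), and Apoe, a lipid carrier (0.21 ± 0.218). In the knock-ins together 19 of the 20 stood lower and the remaining gene higher, as did 46.5% of all genes. The median of the 20 was -1.74, and DESeq2 called 12. Apoe was at -0.87 ± 0.184 (edgeR adjusted p = 0.0581), with all 6 knock-in libraries under the 3 HFD mCherry libraries. The exception was Fabp4, the fatty acid carrier of adipocytes, named after its values were seen, at 1.15 ± 0.597.

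**Figure D4:**
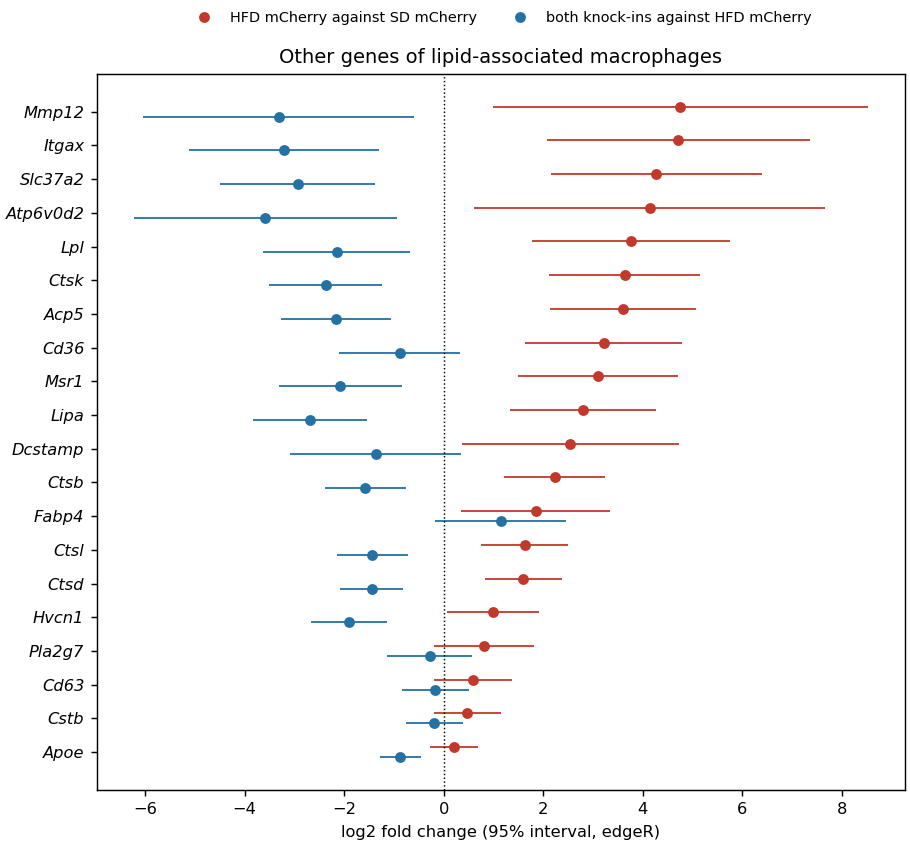
Log2 fold change (horizontal axis, points) with its 95% interval (lines) of 20 other genes of lipid-associated macrophages, for the diet (red) and for both knock-ins against HFD mCherry (blue), from edgeR. All 20 red points lie above 0 and 19 of the 20 blue points lie under 0, with Fabp4 the exception.

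Downstream of the receptor, all 14 genes of Trem2 and Tyrobp signalling stood higher for the diet, with a median log2 difference of 1.37 and 9 called by DESeq2. Syk, the kinase recruited by Tyrobp, was at 2.89 ± 0.613 (edgeR adjusted p = 0.0659) and Btk, another kinase, at 2.59 ± 0.710. Bcl10 was at 0.46 ± 0.347 and Adam10, a protease that sheds Trem2, at 0.40 ± 0.176. In the knock-ins 13 of the 14 stood lower, with a median of -0.83 and 4 called by DESeq2, and Syk was at -1.86 ± 0.475 without overlap. Of 12 other receptors that couple to Tyrobp, 10 were tested, 9 stood higher for the diet and DESeq2 called 3. Cd300ld was at 3.14 ± 0.727 and Cd300lb at 2.87 ± 0.780, beside 0.64 ± 0.618 for Klrd1 and -0.48 ± 0.524 for Siglech. In the knock-ins 9 of the 10 stood lower and DESeq2 called 2.

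Relatives of the 8 members by family went both ways. Of 22 listed, 20 were tested, and for the diet 12 stood higher and 8 lower, with DESeq2 calling 5 and 2. Treml4, a relative of Trem2, was at 3.07 ± 0.668 (edgeR adjusted p = 0.0671) and Cd37, a leukocyte tetraspanin like Cd9, at 2.68 ± 0.789. Fabp3, the muscle form of the fatty acid carriers, was at -2.16 ± 0.808, and Plin5, a droplet coat protein, at -2.24 ± 0.978. Against HFD mCherry the knock-ins had Fabp3 at 2.25 ± 0.752 (DESeq2 adjusted p = 0.0194). Of the 20, 7 stood higher there and 13 lower, with DESeq2 calling 1 and 3.

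Receptors of Spp1 and Lgals3 stood higher for the diet in 8 of 8 cases, with a median of 1.06 and 4 called by DESeq2. Mertk is also among the core macrophage genes. Cd44, which binds osteopontin, was at 2.84 ± 0.605 (edgeR adjusted p = 0.0659) and the integrin Itga4 at 2.13 ± 0.691, beside 0.50 ± 0.465 for Mertk and 0.32 ± 0.346 for Itga9. In the knock-ins 7 of the 8 stood lower and DESeq2 called 1. Of 11 transcription factors of the Mitf family, lipid sensing and macrophage identity, 10 stood higher for the diet, with a median of 0.53 and 3 called by DESeq2. Spi1, which encodes PU.1, was at 2.52 ± 0.653 (DESeq2 adjusted p = 0.00274) and Mitf at 1.78 ± 0.527 (DESeq2 adjusted p = 0.0170). Nr1h2 was at 0.06 ± 0.165 and Rxra at -0.08 ± 0.263. In the knock-ins all 11 stood lower, with a median of -0.19, and DESeq2 called 2. By edgeR 0 genes of these 6 lists were called in any of the 7 comparisons.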

How the data were processed

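Each library had 1 table of raw counts per gene symbol, deposited by the authors without normalisation. Subread, SAMtools, featureCounts 1.6.4 and build mm10 are named in the submitters' processing notes; which gene models were used and whether strand was read are not given in the sources used here. Groups come from the sample labels.

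All 12 libraries were fitted in 1 model with edgeR 4.0.16 in R 4.3.3 (filterByExpr, TMM, robust quasi-likelihood), with 8 residual degrees of freedom and a common biological coefficient of variation of 0.536. P-values are 2-sided, adjusted over 16713 genes within each of 7 comparisons and the 4-group test, and called under 0.05. Alternatives were DESeq2 1.42.0, limma-voom (limma 3.58.1), other scaling, no filter on low counts, covariates, and leaving out each library. Log2 differences given with an SE are those of edgeR, also where a DESeq2 adjusted p stands beside them. That SE is the size of the log2 difference divided by the square root of its F statistic. Per-library log2 levels use CPM plus 0.1. The edgeR model without covariates was run on simulated data, for the diet comparison alone. DESeq2, limma-voom, the covariate models and the other comparisons were not. The closest libraries of a group differed by 21.5 times sampling noise (chi-square per degree of freedom), so none was a copy. The limit of 3 counts was 0.145 to 0.193 CPM.

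The members and lists were chosen with earlier results of these data known. From each pathway list the text names the 2 genes highest and the 2 lowest by diet difference, with a mean from 1 CPM up, and any called by edgeR.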

Additional observations from a re-analysis of the deposited data

How the results depend on the processing

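EdgeR called 0 of the 8 in every comparison, and limma-voom, library size alone, RLE factors, no filter on low counts, fits to the groups compared alone and the macrophage covariate also gave 0. The shares of all genes called in these other settings are not given here. Calls of the 8 by DESeq2 were 5 for the diet, 1 for HFD Tert against HFD mCherry, 1 for HFD TertCi against HFD mCherry, 4 for both knock-ins, 3 for HFD Tert against SD mCherry, 1 for HFD TertCi against SD mCherry and 6 for the 4-group test. Calls over all genes were, in that order, 1994, 792, 599, 1442, 977, 692 and 2214. With the epididymis covariate in edgeR, calls of the 8 were 5 for the diet, 4 for HFD Tert against HFD mCherry, 1 for HFD TertCi against HFD mCherry, 5 for both knock-ins, 1 for HFD TertCi against SD mCherry and 5 for the 4-group test. Over all genes they were 1113, 656, 363, 1274, 215 and 907. With the Crisp1 term, added after seeing the data, calls of the 8 were 5 for the diet, 5 for both knock-ins and 3 for the 4-group test, beside 1508, 719 and 280 over all genes. Leaving out 1 library gave 0 to 5 for the diet (0 to 2082 over all genes), 0 to 3 for both knock-ins (0 to 690) and 0 to 1 for the 4-group test (0 to 651).

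Log2 differences that turned sign were as follows, and the cause was not tested. With limma-voom: Gpnmb -0.17 for HFD Tert against HFD TertCi. With library size alone: Cd9 0.042 for HFD TertCi against HFD mCherry. With the groups compared alone: Cd9 0.017 for HFD TertCi against HFD mCherry. With the epididymis covariate: Trem2 -0.30, Gpnmb -0.60, Lgals3 -0.0023 and Plin2 -0.0097 for HFD Tert against HFD TertCi; Trem2 -0.47, Tyrobp -0.19 and Gpnmb -1.30 for HFD Tert against SD mCherry; Trem2 -0.17 and Gpnmb -0.71 for HFD TertCi against SD mCherry. With the macrophage covariate: Trem2 -0.53, Tyrobp -0.15, Gpnmb -0.61 and Cd9 -0.12 for the diet; Trem2 0.36, Tyrobp 0.18, Lgals3 0.79 and Plin2 1.06 for HFD Tert against HFD mCherry; Trem2 0.21, Tyrobp 0.33, Cd9 0.27, Lgals3 0.33, Fabp5 0.81 and Plin2 0.54 for HFD TertCi against HFD mCherry; Trem2 0.28, Tyrobp 0.25, Lgals3 0.56, Fabp5 1.14 and Plin2 0.80 for both knock-ins; Trem2 -0.18 and Gpnmb -0.69 for HFD Tert against SD mCherry; Trem2 -0.33 and Gpnmb -0.70 for HFD TertCi against SD mCherry. With the Crisp1 term: Gpnmb -0.25 for HFD Tert against SD mCherry; Gpnmb -0.28 for HFD TertCi against SD mCherry. Leaving out 1 library, ranges that crossed 0 were Spp1 -1.54 to 0.72 for the diet, Fabp5 -0.32 to 0.43 for HFD Tert against HFD mCherry, Cd9 -0.30 to 0.085 for HFD TertCi against HFD mCherry and Cd9 -0.092 to 0.19 and Fabp5 -0.49 to 0.15 for both knock-ins. Such ranges were Trem2 -1.32 to 1.44, Tyrobp -1.21 to 0.33, Gpnmb -2.02 to 1.81, Spp1 -1.42 to 0.21, Lgals3 -0.37 to 0.94 and Plin2 -0.28 to 0.79 for HFD Tert against HFD TertCi, Trem2 -0.61 to 1.43, Tyrobp -0.53 to 1.02 and Gpnmb -1.28 to 2.40 for HFD Tert against SD mCherry and Trem2 -0.47 to 1.08 and Gpnmb -0.79 to 2.12 for HFD TertCi against SD mCherry. Library size alone moved the median of all genes for the diet by -0.20, and the members' median was then 2.37. No paired analysis was possible because no replicate number occurs in more than 1 group.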
